A study of Mus musculus with 9 samples.

Results

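Long intergenic noncoding RNAs (lincRNAs) are transcripts made from genomic stretches between protein-coding genes and not known to be translated. The set described here held the lincRNAs with a measurable level in mouse cardiomyocytes. They were taken from a table of read counts for 55487 genes by annotation and level: gene type lincRNA in GENCODE release M21, a position off the X and Y chromosomes, and a mean over all 9 libraries of at least 1 CPM (counts scaled to a common library size). Of 5614 lincRNAs in the table, 4979 were autosomal, and 1948 of these had any count. The limit was met by 171, of which the rule leaves out 2, H19 and Meg3, so that 169 remained. The set was therefore selected on mean levels, and no test is made on those. Just inside the limit lay Gm43254, Gm47814 and Gm40652 at 1.02, 1.02 and 1.01 CPM, and just outside lay Gm30556, Prr33 and AC132253.6 at 0.996, 0.987 and 0.973 CPM.

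Many lincRNAs stay in the nucleus, where they help build nuclear bodies, hold proteins or act on the genes beside them, while others reach the cytoplasm and bind proteins or microRNAs. Some are chiefly precursors, whose introns or exons release small nucleolar RNAs (snoRNAs, guides for RNA modification) or microRNAs (short RNAs that repress messenger RNAs). In the heart, lincRNAs beside developmental regulators such as Hand2 are known to act on those genes, and others mark a single cell type of the tissue.

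RNA was sequenced from isolated mouse cardiomyocytes, the contractile cells of the heart, in 3 groups of 3 libraries, to ask how raised Firre changes gene expression. Firre is itself a nuclear long noncoding RNA made from the X chromosome. The Firre overexpression group received AAV9-Firre, a vector of an adeno-associated virus serotype that enters heart muscle well, the negative control received the vector AAV9-VC, and for the blank control the labels say no more than blank. The libraries of these groups are called Firre, vector and blank libraries where values are listed. The labels state neither strain, age and genotype, nor whether the cells were infected in the animal or in culture, nor how the cells were purified, and all 3 groups are labelled as the same cell type.

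Firre stood at 33.99, 37.1 and 30.2 CPM in the blank libraries, 32.5, 34.4 and 32.7 CPM in the vector libraries and 62.8, 69.6 and 62.5 CPM in the Firre libraries, so the Firre libraries matched their label. Between the negative and blank control Firre was not called (log2 difference -0.03, adjusted p 0.954, edgeR), so its level cannot tell those labels apart. The libraries held 15591542 to 22697016 gene counts. All 8 cardiomyocyte markers looked at (Myh6, Tnnt2, Actn2, Ryr2, Ttn, Atp2a2, Pln and Tnni3) were present, with summed levels of 33400 to 36040 CPM in the 6 control libraries and 49990 to 52780 CPM in the Firre libraries. Markers of other heart cells were present as well and lower in the Firre group: all 8 fibroblast, 8 endothelial, 8 macrophage and 8 epicardial markers and 7 of 8 smooth muscle and pericyte markers fell against the negative control. In such bulk RNA, fewer cells of a type and less RNA per cell cannot be told apart.

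The 169 lincRNAs lay on 19 autosomes, and most were scarce. Their median level was 2.35 CPM. Only 5 reached 100 CPM, 25 reached 10 CPM, 80 lay between 2 and 10 CPM and 64 below 2 CPM. The median exon length was 2369 bases, and 33 had a single exon. A placeholder name of the Gm, Rik or genomic clone type, which tells nothing of function, was carried by 151 of them. Some of these have a known role all the same, among them 2900097C17Rik (Norad) and 1700020I14Rik (Cyrano). Exons of 118 overlapped no other gene. For the others, and wherever a gene lies on the opposite strand, the share of counts that belongs to the lincRNA is uncertain, because no source used here says whether reads were counted by strand.

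The label noncoding did not hold throughout when set against a second annotation. RefSeq had an overlapping entry of the same name or identifier for 121 of the 169, and called 106 of these lncRNA, 12 protein-coding and 3 pseudogenes. Among the 12 were 1810058I24Rik, Lsmem2, Tmem250-ps and Zfp469, which are described in a paragraph of their own. The other 48 had no RefSeq entry.

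Per base of exon, the order of abundance was led by Malat1 at a mean of 597 TPM (counts scaled by exon length and library) over the 9 libraries. Behind it stood Gm10076 at 265, Zfp469 at 119.8, 2900097C17Rik (Norad) at 96.2, 1810058I24Rik at 87.7, Tmem250-ps at 82.5, Lsmem2 at 66.2 and 1700020I14Rik (Cyrano, Oip5os1 in RefSeq) at 54.5 TPM. The median lincRNA stood at 4.32 TPM. Of the 8 most abundant per base, RefSeq therefore counted 4 as protein-coding and 1, Gm10076, as a pseudogene.

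Many lincRNAs differed between the Firre overexpression and control groups, in both directions, with more of them higher than lower in the Firre group. Against the negative control, 59 of the 169 rose and 29 fell, at an adjusted p under 0.05 in edgeR's quasi-likelihood test with Benjamini-Hochberg adjustment over all 15633 genes tested. The 88 called were 52.1% of the lincRNAs, beside 56.0% of all genes tested and 59.7% of those with a mean of at least 1 CPM, so the share of lincRNAs called was no larger than the background. The split differed in these counts: 34.9% of lincRNAs rose and 17.2% fell, beside 27.5% and 28.4% of all genes. The median difference was 0.20 on the log2 scale over the lincRNAs and 0.00 over all genes tested. Whether the lincRNAs' split is particular to them was not tested.

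The sizes were modest for most. The middle 50% of log2 differences ran from -0.25 to 0.64, 23 of the risen lincRNAs rose by at least 2-fold and 10 of the fallen ones fell by as much. The 3 Firre libraries lay all above or all below the 3 negative control libraries for 92 lincRNAs, or 54.4%, beside 62.4% of all genes tested. Precision followed level: the median standard error (SE) of the log2 difference was 0.31 for lincRNAs below 2 CPM, 0.20 from 2 to 10 CPM and 0.09 above, beside 0.09 over all genes. Of the 64 lincRNAs below 2 CPM 24 were called, and of the 25 at 10 CPM or more 20 were.

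**Figure D1:**
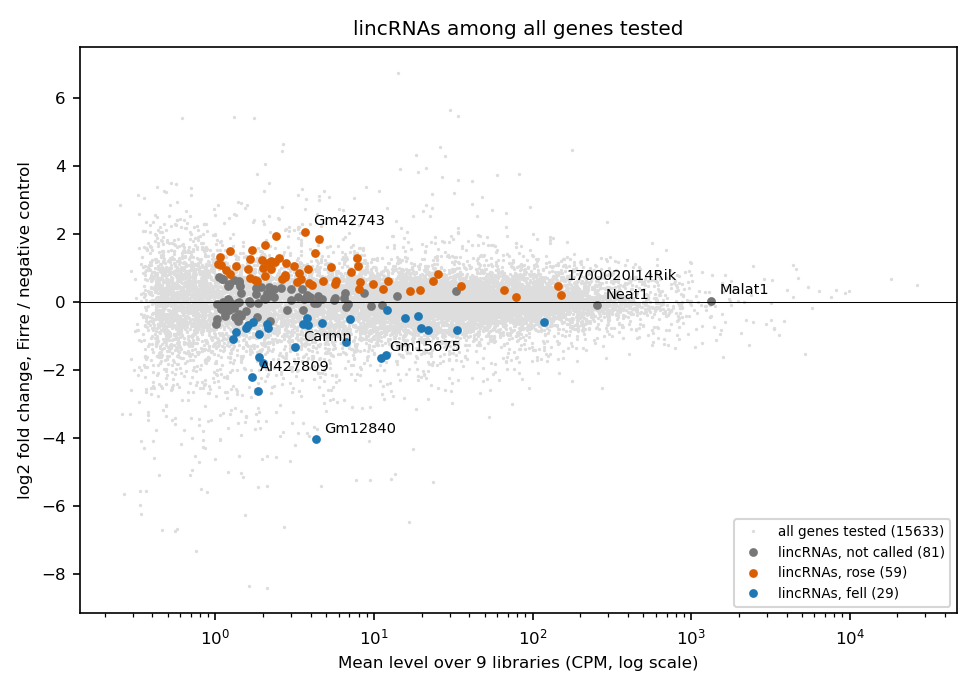
Each point is a gene, placed by its mean level over the 9 libraries (horizontal axis, CPM, log scale) and its log2 difference between the Firre overexpression and negative control groups (vertical axis); the 15633 genes tested are in pale grey and the 169 lincRNAs in dark grey (81 not called), orange (59 rose) or blue (29 fell). Most lincRNAs crowd at levels under 10 CPM, Malat1 and Neat1 sit near 0 at the right, and Gm12840 lies lowest among them.

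The limit on the mean level can be met without every group reaching it. Such lincRNAs had to differ in mean level between groups, though some differed only slightly and were not called. In every group 143 reached 1 CPM, and of these 52 rose and 22 fell. The limit was missed in both control groups by 7, of which 5 rose, and in the Firre group by 14, of which 7 fell. Leaving out the 15 that RefSeq calls protein-coding or pseudogene left 154, of which 50 rose and 28 fell. Leaving out the 14 whose transcript is near-identical to another gene, which can split or lose reads, left 155, of which 55 rose and 24 fell.

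Against the blank control, which shares the Firre libraries with the comparison above, 58 lincRNAs rose and 27 fell in edgeR's test. These 85 were 50.3%, beside 56.3% of all genes tested (27.3% higher and 28.9% lower), and the median difference was 0.18. Between the negative and the blank control, edgeR called no lincRNA, beside 0.0576% of all genes (9 of 15633). In that comparison 7 lincRNAs had an unadjusted p under 0.05 in edgeR and 5 in DESeq2, which called none but gave no adjusted p for 162. Without the filter on low counts edgeR called 1.

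Malat1 and Neat1, which lie near each other on chromosome 19, are the best known nuclear body lincRNAs. Malat1 collects in nuclear speckles, stores of splicing factors, and Neat1 is the scaffold around which paraspeckles form. Malat1 (chr19:5795690-5802672) was counted at 1464, 1362 and 1133 CPM in the blank libraries, 1404, 1224 and 1377 CPM in the vector libraries and 1451, 1337 and 1311 CPM in the Firre libraries. The groups overlapped, and the log2 difference between Firre and negative control was 0.03 (SE 0.09, adjusted p 0.789, edgeR).

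Neat1 (chr19:5824708-5845478) stood at 251, 278 and 257 CPM in the blank libraries, 266, 256 and 261 CPM in the vector libraries and 252, 255 and 226 CPM in the Firre libraries. All 3 Firre libraries lay below all 3 negative control libraries, but not below the blank ones, and the difference of -0.10 (SE 0.05) did not pass edgeR's test (adjusted p 0.115). It passed when libraries were scaled by their totals alone, at -0.15 with an adjusted p of 0.0141 in edgeR.

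Proteins of these bodies were looked at through their messenger RNAs. Among 16 paraspeckle proteins, 10 fell and 2 rose, beside 28.4% and 27.5% of all genes, and their median was -0.17 beside 0.00 over all genes. Sfpq, a core protein of paraspeckles, fell from 272 ± 5.28 to 204 ± 8.06 CPM (SD, n = 3 each), a log2 difference of -0.41 (SE 0.05, edgeR adjusted p 3.29e-08). Zc3h6 rose from 4.87 ± 0.750 to 10.1 ± 0.403 CPM. Among 15 nuclear speckle proteins, 6 fell and 1 rose (median -0.06), a smaller share called than the 56.0% of all genes, and the 3 with the smallest p were the splicing factors Srsf2, Srsf7 and Srsf11, at -0.58, -0.30 and -0.22.

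**Figure D2:**
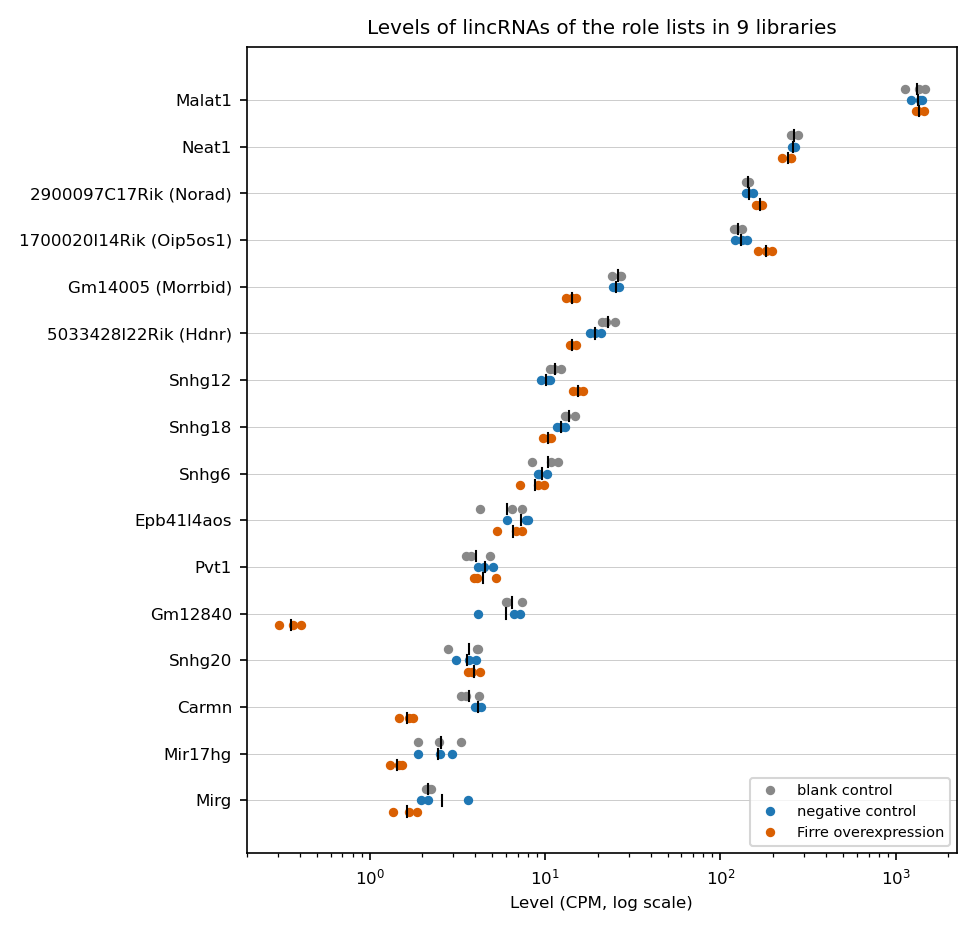
The 16 lincRNAs of the lists by role are shown by library, with the level on the horizontal axis (CPM, log scale), 1 point per library, blank control in grey, negative control in blue and Firre overexpression in orange, and a black tick at each group's mean. Malat1, Neat1, Pvt1, Snhg6, Snhg20 and Epb41l4aos show groups close to each other, while the Firre libraries stand to the left for Gm12840, Carmn and Gm14005 and to the right for Snhg12 and 1700020I14Rik.

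Norad, listed as 2900097C17Rik (chr2:156388065-156392979, 1 exon), is a cytoplasmic lincRNA that binds Pumilio proteins, repressors of messenger RNAs, through many short repeats of their binding motif. Counts gave 146, 144 and 139.9 CPM in the blank libraries, 144, 154 and 140.2 CPM in the vector libraries and 169, 161 and 174 CPM in the Firre libraries. Every Firre library was above every control library, by 0.20 on the log2 scale against the negative control (SE 0.05, adjusted p 0.00108) and by 0.23 against the blank control (SE 0.05, adjusted p 0.000244, both edgeR). The letters TGTANATA, the core of the Pumilio motif, were searched on the sense strand of the longest transcript of each of the 169. Norad held 11 of them, or 2.24 per kilobase, the most of any. Of the 169, 43 held any.

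Next came Gm7292 with 9, or 3.56 per kilobase. Gm7292 (chr6:117716342-117718868) is 99.2% identical to Norad over its whole transcript, so reads that match both may have been dropped or split. It stood at 7.69 ± 1.68, 8.37 ± 0.329 and 9.98 ± 1.23 CPM in the blank control, negative control and Firre groups (SD, n = 3 each), and its difference of 0.25 against the negative control did not pass (adjusted p 0.122, edgeR).

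Cyrano, listed as 1700020I14Rik (chr2:119594297-119607502, 3 exons), carries an extensively paired site for the microRNA miR-7 and is known to bring about that microRNA's destruction. The site is shown because it sets Cyrano apart in this set. The mature microRNA is from RefSeq (GRCm38.p6), with its seed (bases 2 to 8) in capitals, and the site is from the GENCODE M21 transcript of Cyrano, positions 2934 to 2959, with the bases that pair with the seed in capitals.
mmu-miR-7a-5p: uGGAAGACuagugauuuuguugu
1700020I14Rik site: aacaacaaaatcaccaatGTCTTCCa
Past the seed, 14 of the other 15 bases of the microRNA could pair once 2 bases of the site next to the seed match were left unpaired. A match to the seed was present in transcripts of 38 of the 169 lincRNAs, and with up to 4 unpaired bases allowed in the same place the next best of them paired 9 of the 15. The level of miR-7 itself was not measured in these libraries.

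Cyrano was counted at 124, 133 and 120.1 CPM in the blank libraries, 121, 142 and 132 CPM in the vector libraries and 196, 164 and 183 CPM in the Firre libraries. Every Firre library stood above every control library. The rise was 0.46 against the negative control (SE 0.06, adjusted p 1.04e-06) and 0.53 against the blank control (SE 0.06, adjusted p 1.23e-07, both edgeR). Its nearest coding gene, Oip5, which acts at centromeres, ends 2010 bases away, facing it, and fell from 3.24 ± 0.409 to 2.12 ± 0.498 CPM (log2 difference -0.61, adjusted p 0.0217, edgeR).

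The Cyrano promoter is shown as that of the most abundant lincRNA past the test with an increase of at least 0.4 on the log2 scale. It covers 250 bases before to 50 after the start (RefSeq, GRCm38.p6, chr2:119594046-119594345, plus strand), with the letters CCAAT (the box bound by NF-Y), GGGCGG (the GC box bound by Sp1) and GGAATG (bound by TEAD factors) in capitals on either strand.
1700020I14Rik promoter: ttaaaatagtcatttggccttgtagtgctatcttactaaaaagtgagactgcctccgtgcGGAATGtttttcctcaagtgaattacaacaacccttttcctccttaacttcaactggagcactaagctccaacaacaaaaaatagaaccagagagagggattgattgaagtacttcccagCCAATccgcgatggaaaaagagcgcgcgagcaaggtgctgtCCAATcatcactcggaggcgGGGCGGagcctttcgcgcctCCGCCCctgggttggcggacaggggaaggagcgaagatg
The window held CCAAT 2 times, GGGCGG 2 times and GGAATG 1 time, none overlapping. Over all 32851 promoters in the RefSeq table, 37.4% held CCAAT, 35.7% GGGCGG and 14.7% GGAATG, beside 40.4%, 30.3% and 19.3% of the 109 promoters found for 95 of the lincRNA genes. A match is no evidence of binding.

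The snoRNA hosts were called at a share near that of all genes. Of 16 tested genes of a list of known hosts, 5 rose and 4 fell (median -0.10), beside 27.5% and 28.4% of all genes tested, and 5 of the 16 belong to the set. Snhg12 (chr4:132308623-132311024), which holds 5 annotated snoRNAs, was counted at 12.3, 11.3 and 10.7 CPM in the blank libraries, 10.7, 9.49 and 10.3 CPM in the vector libraries and 15.5, 14.5 and 16.4 CPM in the Firre libraries. It rose in all 3 Firre libraries beyond all control libraries, by 0.60 against the negative control (SE 0.10, adjusted p 9.63e-06) and 0.44 against the blank control (adjusted p 0.000577, both edgeR). Of its exon bases, 470 are shared with these snoRNAs, so its count may hold reads of the snoRNAs too.

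Snhg18 (chr15:32240565-32244662), whose start lies 148 bases from that of the axon guidance gene Sema5a on the other strand, was counted at 12.99, 11.8 and 12.3 CPM in the vector libraries and 10.6, 9.74 and 10.8 CPM in the Firre libraries. Its fall of 0.25 on the log2 scale passed narrowly (SE 0.10, adjusted p 0.0428, edgeR), and the call was lost in DESeq2 (adjusted p 0.108), with the replicate block (0.0549, edgeR), with no filter on low counts (0.0778, edgeR) and without any one of negative control replicates 1 and 3 and Firre replicates 1 and 2 (adjusted p of 0.0695 to 0.156, edgeR). Sema5a fell as well, from 33.1 ± 2.11 to 25.1 ± 1.84 CPM (SD, n = 3 each, adjusted p 8.94e-05, edgeR). Snhg6, Snhg20 and Epb41l4aos did not pass, with differences of -0.13, 0.12 and -0.15 and SEs of 0.13, 0.18 and 0.17.

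Among the microRNA hosts, 7 of 12 tested genes of the list fell and 2 rose, beside 28.4% and 27.5% of all genes tested, and the median was -0.66 beside 0.00. The set holds 3 of the list, and all 3, Mir17hg, Mirg and Carmn, fell. Over the annotation, 9 of the 169 had a microRNA gene within them on the same strand, and of these 1 rose, 2 fell and 6 were not called. Mir17hg (chr14:115042879-115046727) is the host of the miR-17 to miR-92a cluster, known for driving cell proliferation. The main mature microRNAs of the cluster are given from RefSeq (GRCm38.p6) with the seed in capitals, since the host's level bears on all of them at once.
mmu-miR-17-5p: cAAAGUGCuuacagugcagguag
mmu-miR-20a-5p: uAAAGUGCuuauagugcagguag
mmu-miR-18a-5p: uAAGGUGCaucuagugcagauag
mmu-miR-19a-3p: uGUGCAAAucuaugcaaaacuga
mmu-miR-19b-3p: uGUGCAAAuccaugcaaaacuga
mmu-miR-92a-3p: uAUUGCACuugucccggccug
Both miR-17-5p and miR-20a-5p carry the seed AAAGUGC, both miR-19 members carry GUGCAAA, and miR-18a-5p and miR-92a-3p have seeds of their own.

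Mir17hg was counted at 2.49, 3.31 and 1.88 CPM in the blank libraries, 2.52, 2.96 and 1.89 CPM in the vector libraries and 1.47, 1.53 and 1.304 CPM in the Firre libraries. The 3 Firre libraries were the 3 lowest, and the fall was 0.77 on the log2 scale against the negative control (SE 0.26, adjusted p 0.0115) and 0.84 against the blank control (adjusted p 0.00661, both edgeR). Without negative control replicate 2 the first call was lost (-0.61, adjusted p 0.0785, edgeR). These are counts of the host transcript, and mature microRNAs are too short for such libraries.

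Mirg (chr12:109729764-109749460) lies in the imprinted Dlk1-Dio3 region, where it is made from the maternal chromosome, and holds 14 microRNA hairpins. Its level was 2.17, 2.095 and 2.23 CPM in the blank libraries, 1.95, 3.62 and 2.14 CPM in the vector libraries and 1.87, 1.67 and 1.36 CPM in the Firre libraries. The Firre libraries were below all controls, but the call against the negative control (-0.66, SE 0.25, adjusted p 0.0275, edgeR) rested on negative control replicate 2. Without that library the difference was -0.32 with an adjusted p of 0.335, the call was also lost without Firre replicate 2 or 3 (adjusted p of 0.0570 and 0.111) and in DESeq2 (0.0842), and against the blank control it was -0.40 with an adjusted p of 0.199 (edgeR).

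The host 6720427I07Rik (chr13:48532905-48546500) was the lincRNA with the smallest p between the controls. It holds the hairpins of 3 members of the let-7 family, microRNAs that mark differentiated cells. Their mature forms (RefSeq, GRCm38.p6) share the seed GAGGUAG, in capitals.
mmu-let-7a-5p: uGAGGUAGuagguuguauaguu
mmu-let-7d-5p: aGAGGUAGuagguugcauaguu
mmu-let-7f-5p: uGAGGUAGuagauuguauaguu
The host was counted at 4.02, 3.51 and 2.798 CPM in the blank libraries, 1.69, 1.83 and 1.73 CPM in the vector libraries and 3.84, 2.66 and 2.56 CPM in the Firre libraries. The negative control libraries were the 3 lowest of the 9. The host rose against them by 0.78 (SE 0.23, adjusted p 0.00453), but stood at -0.19 against the blank control (SE 0.21, adjusted p 0.475, both edgeR), with overlapping groups. Between the controls the difference was -0.97 (SE 0.23, adjusted p 0.136, edgeR), the smallest unadjusted p of the 169 in that comparison (0.000206) and short of the threshold. Without Firre replicate 1 the rise over the negative control was 0.57 and no longer passed (adjusted p 0.0587, edgeR).

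Of 6 tested genes in a list of cardiovascular lincRNAs under any gene type, 1 rose and 3 fell (median -0.49), beside 27.5% and 28.4% of all genes. Mhrt, outside the set, rose from 41.1 ± 5.35 to 62.05 ± 5.68 CPM (log2 difference 0.60, adjusted p 0.0022, edgeR). Hand2os1, also outside the set, stood at 0.06 and did not pass (adjusted p 0.499, edgeR). Within the set, 5033428I22Rik (chr8:57332118-57354580, Hdnr in RefSeq) lies 7485 bases from Hand2, a transcription factor of heart development. Its values were 22.3, 24.9 and 21.1 CPM in the blank libraries, 19.2, 17.9 and 20.9 CPM in the vector libraries and 14.1, 13.9 and 14.97 CPM in the Firre libraries. The 3 groups did not overlap, with the blank control highest. The fall was 0.43 on the log2 scale against the negative control (SE 0.09, adjusted p 0.000175) and 0.67 against the blank control (adjusted p 2.13e-07, both edgeR). Hand2 went from 131 ± 4.71 to 117 ± 5.06 CPM, a fall of 0.17 (SE 0.05, adjusted p 0.00879, edgeR), and the lincRNA Gm34030, which shares 985 exon bases with Hdnr on the other strand, stood at 1.81 ± 0.293 and 1.96 ± 0.267 CPM and did not pass (adjusted p 0.743, edgeR).

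Carmn (chr18:61649625-61665537), a lincRNA of smooth muscle whose gene lies beside those of miR-143 and miR-145, was counted at 3.32, 4.19 and 3.54 CPM in the blank libraries, 4.16, 4.32 and 3.98 CPM in the vector libraries and 1.67, 1.76 and 1.46 CPM in the Firre libraries. No Firre library reached the lowest control library, and the fall was 1.34 on the log2 scale against the negative control (SE 0.20, adjusted p 1.21e-06) and 1.18 against the blank control (adjusted p 1.42e-05, both edgeR). The 8 smooth muscle and pericyte markers, Myh11, Acta2, Tagln, Cnn1, Rgs5, Pdgfrb, Kcnj8 and Abcc9, summed to 2694 to 3030 CPM in the negative control and 1260 to 1400 CPM in the Firre group. Of these 7 fell and 1 rose (median -1.20), and none was at 0. Their part in the fall of Carmn was not tested.

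Gm14005 (chr2:128178319-128502765, Morrbid in RefSeq), known in short-lived myeloid cells as a brake on the cell death gene Bcl2l11, was counted at 24.1, 26.9 and 27.1 CPM in the blank libraries, 26.5, 25.2 and 24.4 CPM in the vector libraries and 14.3, 13.2 and 14.97 CPM in the Firre libraries. The Firre libraries lay well below all controls, with a fall of 0.84 against the negative control (SE 0.08, adjusted p 7.31e-10) and 0.88 against the blank control (adjusted p 3.2e-10, both edgeR). Bcl2l11, its nearest coding gene at a distance of 15772 bases, went from 9.93 ± 1.85 to 7.79 ± 1.58 CPM, a difference of -0.36 (adjusted p 0.0299, edgeR). The 8 macrophage markers summed to 66.9 to 73.3 CPM in the negative control and 11.5 to 12.4 CPM in the Firre group, all 8 fell, with a median of -3.76, and C1qa was at 0 in the Firre libraries. The part of these cells in the level of Gm14005 was not tested.

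Pvt1 (chr15:62037986-62378096), which runs beside the growth regulator Myc, stood at 4.06 ± 0.697, 4.54 ± 0.456 and 4.44 ± 0.723 CPM in the 3 groups (SD, n = 3 each) and did not pass (log2 difference -0.04, SE 0.17, adjusted p 0.878, edgeR). Myc, 47612 bases away, fell from 73.7 ± 3.85 to 59.1 ± 3.09 CPM (adjusted p 3.29e-05, edgeR). The list of widely expressed regulatory lincRNAs is annotated partly under other gene types and includes Norad and Cyrano. Of its 13 tested genes, 5 rose and 2 fell (median 0.20), beside 27.5% and 28.4% of all genes tested.

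The 10 largest rises among lincRNAs that passed the test, had groups that did not overlap and reached 2 CPM in the Firre group ran from 1.27 to 2.06 on the log2 scale. Gm42743 (chr3:96269721-96279001) rose most, from 1.49, 2.12 and 1.78 CPM in the vector libraries to 6.22, 7.22 and 9.23 CPM in the Firre libraries, with 1.47, 1.95 and 1.77 CPM in the blank control. The rise was 2.06 (SE 0.20, adjusted p 2.14e-10, edgeR), but the gene shares 226 exon bases with the histone gene Hist2h2bb on the same strand and 257 with Gm20628 on the other, so its counts may be partly theirs.

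Gm39090 (chr7:127691935-127700793) had no such exon overlap. It stood at 1.53, 1.31 and 0.856 CPM in the blank libraries, 1.33, 1.32 and 1.12 CPM in the vector libraries and 4.803, 4.47 and 5.17 CPM in the Firre libraries, a rise of 1.93 (SE 0.22, adjusted p 1.33e-08, edgeR). The lowest Firre library stood above every control library by a wide margin. It lies within the span of Bcl7c, a chromatin remodelling subunit, which stood at 27.5 ± 2.94 and 25.1 ± 1.702 CPM (adjusted p 0.197, edgeR).

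AC119982.1 (chr19:27260735-27262323) was counted at 3.38, 2.73 and 2.28 CPM in the blank libraries, 2.82, 2.07 and 2.19 CPM in the vector libraries and 8.75, 8.300 and 8.19 CPM in the Firre libraries, a rise of 1.83 (SE 0.17, adjusted p 1.61e-10, edgeR). Its end faces that of Vldlr, a lipoprotein receptor, at a distance of 6504 bases, and Vldlr rose from 112 ± 2.63 to 184 ± 4.92 CPM. Gm30735 (chr3:53725477-53733018) was counted at 2.52, 2.68 and 2.91 CPM in the vector libraries and 7.43, 7.31 and 7.15 CPM in the Firre libraries, a rise of 1.43 (SE 0.16). Its nearest coding gene, Frem2, a basement membrane protein 68122 bases away, rose by 1.25, from 122 ± 0.825 to 291 ± 17.4 CPM (SD, n = 3 each).

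The other 6 rises were Gm5113, from 5.298 ± 0.394 to 12.99 ± 2.004 CPM, 4632428C04Rik, from 1.26 ± 0.671 to 3.999 ± 0.566 CPM, Gm19277, from 1.81 ± 0.621 to 4.44 ± 0.467 CPM, Gm35330, from 1.01 ± 0.455 to 2.905 ± 0.642 CPM, Gm1600, from 1.14 ± 0.368 to 2.73 ± 0.644 CPM, and Gm32849, from 0.803 ± 0.373 to 2.25 ± 0.870 CPM (SD, n = 3 each). Gm32849 was under 1 CPM in both control groups and met the limit only through the Firre group, so the selection favoured its rise. The coding neighbours of these 6 did not share the size of the change. Gm5113 starts 125 bases from Zfp146, a zinc finger gene, which was at -0.13 and not called. 4632428C04Rik lies 42954 bases from Hes1, a Notch target that fell by 0.16 (adjusted p 0.0407, edgeR). Gm35330 lies 136972 bases from Klf6, a transcription factor that fell by 0.61. Emp2, next to Gm1600, stood at 0.10 and was not called. Nav2, which overlaps Gm32849, rose by 0.14 (adjusted p 0.0233, edgeR), while Ribc2, next to Gm19277, was too low to be tested.

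**Figure D3:**
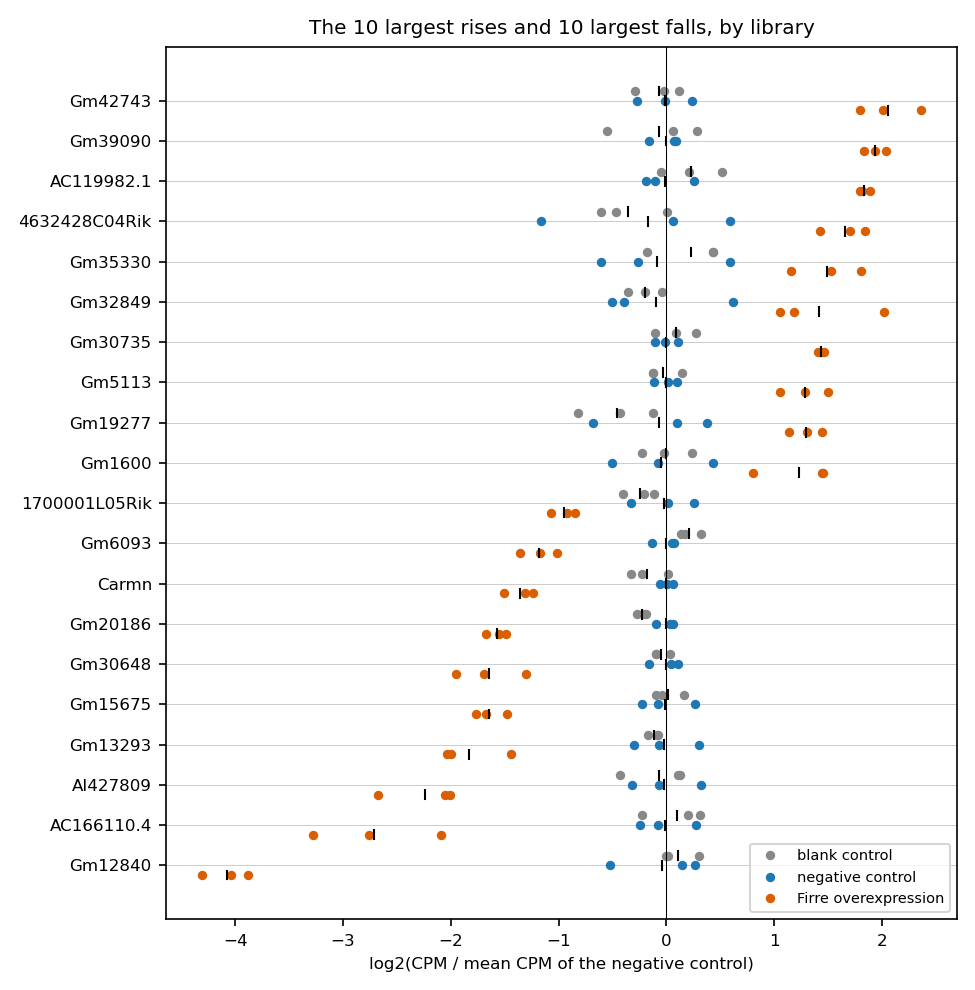
The 10 largest rises and 10 largest falls are shown by library as log2 of CPM over the mean CPM of the negative control (horizontal axis), 1 point per library, with blank control in grey, negative control in blue, Firre overexpression in orange and a black tick at the mean of each group's 3 log values. The control groups lie near 0 in each row, the Firre libraries lie apart from both, and the spread between libraries is wider for scarce lincRNAs such as Gm32849 and AC166110.4 than for Gm30735.

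The 10 largest falls ran from -4.04 to -0.94. Among them, Gm12840, AC166110.4, AI427809, Gm13293 and Gm30648 were under 1 CPM in the Firre group. They met the limit only through the control groups, so the selection itself favoured a lower Firre level for them. Gm12840 (chr4:117700188-117700923) led the falls. It was counted at 7.398, 5.99 and 6.05 CPM in the blank libraries, 4.16, 7.19 and 6.63 CPM in the vector libraries and 0.303, 0.406 and 0.365 CPM in the Firre libraries, from 364 reads over the 3 negative control libraries and 22 over the 3 Firre libraries. The fall of 4.04 on the log2 scale (SE 0.27, adjusted p 1.25e-13, edgeR) was the largest of any of the 169. Gm20186 (chr6:18845910-18848207), which aligns to the whole Gm12840 transcript at 97.5% identity, was counted at 14.2, 13.4 and 13.99 CPM in the blank libraries, 15.2, 16.9 and 16.6 CPM in the vector libraries and 5.51, 5.097 and 5.79 CPM in the Firre libraries, a fall of 1.57 (SE 0.11, adjusted p 2.05e-13, edgeR). A further copy outside the set, AC160336.1, stood at -1.63 (adjusted p 0.00179, edgeR). Which of these near-identical loci the reads came from is uncertain, and the coding neighbour of Gm12840, Dmap1, stood at 0.23 (adjusted p 0.0545, edgeR).

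AC166110.4 (chr17:13330748-13333842, 1 exon) fell by 2.61, from 2.31, 2.07 and 2.96 CPM in the vector libraries to 0.253, 0.361 and 0.574 CPM in the Firre libraries, with 2.81, 2.095 and 3.03 CPM in the blank control. Its whole transcript is also near-identical to parts of annotated coding transcripts: 98.5% to Sod2, the mitochondrial superoxide dismutase, which rose by 0.45, and 98% to Rps6ka2, a kinase of the ribosomal S6 kinase family, which fell by 1.62. No source used here says how reads were shared among them.

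AI427809 (chr4:53261356-53270232, Mexis in RefSeq) was described in macrophages, where the sterol receptor LXR induces it and it raises transcription of Abca1, the cholesterol exporter on the same chromosome. Counts gave 2.49, 1.71 and 2.51 CPM in the blank libraries, 1.85, 2.87 and 2.19 CPM in the vector libraries and 0.556, 0.361 and 0.574 CPM in the Firre libraries. The Firre libraries lay below every control library, with a fall of 2.22 (SE 0.32, adjusted p 6.71e-07) against the negative control and 2.16 against the blank control (adjusted p 1.45e-06, both edgeR). Abca1, its nearest coding gene 101461 bases away, was counted at 33.1, 43.1 and 33.4 CPM in the vector libraries and 5.97, 5.59 and 7.304 CPM in the Firre libraries, a fall of 2.54 (SE 0.13, adjusted p 1.02e-12, edgeR). The summed macrophage markers given above for Gm14005 fell in the same libraries, and their part in both falls was not tested.

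A promoter of AI427809 is shown because the gene fell together with its known target (RefSeq, GRCm38.p6, chr4:53270183-53270482, minus strand). The single match of the letters searched, CCAAT read on the other strand, is in capitals.
AI427809 promoter: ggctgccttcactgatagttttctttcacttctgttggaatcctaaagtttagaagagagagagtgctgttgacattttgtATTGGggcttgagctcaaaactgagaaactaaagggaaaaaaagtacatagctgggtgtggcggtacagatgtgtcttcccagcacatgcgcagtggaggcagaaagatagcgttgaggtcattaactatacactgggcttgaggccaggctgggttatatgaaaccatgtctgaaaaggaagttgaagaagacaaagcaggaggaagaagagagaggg
The letters AGGTCA repeated after a spacer of any 4 bases, a consensus of the LXR element, were searched on both strands. They are not in this window, nor in a further RefSeq promoter of the gene (chr4:53265443-53265742, not shown), which holds CCAAT 1 time. Of all 32851 promoters, 0.0152% hold this repeat.

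Of the other falls, Gm15675 (chr1:130429781-130437191) was counted at 13.7, 13.2 and 15.9 CPM in the blank libraries, 13.3, 16.97 and 12.1 CPM in the vector libraries and 4.15, 4.42 and 5.06 CPM in the Firre libraries, a fall of 1.64 (SE 0.14, adjusted p 1.12e-11, edgeR). It lies 1836 bases beyond the end of Cd55 on the same strand, a cell surface inhibitor of complement, which fell by almost the same size, 1.65 (SE 0.07), from 98.8 ± 6.702 to 31.5 ± 0.596 CPM. Gm15675 also shares 1087 exon bases with Gm15674 on the other strand. Gm13293 fell from 2.699 ± 0.584 to 0.775 ± 0.188 CPM, Gm30648 from 2.45 ± 0.228 to 0.794 ± 0.182 CPM, Gm6093 from 7.66 ± 0.591 to 3.39 ± 0.403 CPM, and 1700001L05Rik from 2.37 ± 0.473 to 1.23 ± 0.0951 CPM (SD, n = 3 each). Against the blank control these 4 stood at -1.69, -1.58, -1.39 and -0.71, and all 4 passed there too. The coding neighbours of Gm20186, Gm30648 and 1700001L05Rik, which are Lsm8, Cxxc4 and Arfgap3, stood at -0.23, 0.32 and -0.25. Of these only Arfgap3 passed (adjusted p 0.00243, edgeR). The coding neighbours of Carmn, AC166110.4, Gm13293 and Gm6093 were too low to be tested.

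The members with a coding entry in RefSeq were among the most precisely measured. Of the 12, 8 rose and 1 fell (median 0.34), beside 27.5% and 28.4% of all genes tested and 34.9% and 17.2% of the 169. Lsmem2 (chr9:107593841-107597075), a small membrane protein, was counted at 5.93, 5.36 and 6.57 CPM in the blank libraries, 5.699, 5.55 and 6.17 CPM in the vector libraries and 13.8, 11.6 and 10.9 CPM in the Firre libraries, and rose by 1.06 (SE 0.13, adjusted p 2.96e-08, edgeR). 1810058I24Rik (chr6:35252654-35263496), which encodes a mitochondrial micropeptide, was counted at 75.6, 75.6 and 75.1 CPM in the vector libraries and 81.4, 81.1 and 88.8 CPM in the Firre libraries, a rise of 0.15 that passed narrowly (adjusted p 0.0255) and did not pass against the blank control (adjusted p 0.0571, both edgeR). The first call was lost without any one of the 3 negative control libraries or Firre replicate 3 (adjusted p of 0.0556 to 0.150, edgeR), and with libraries scaled by their totals alone (0.154, edgeR). Tmem250-ps rose from 61.2 ± 1.59 to 77.3 ± 5.43 CPM.

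Zfp469 (chr8:122269569-122272650), a zinc finger gene known for its part in the collagen of the cornea, was the 1 of the 12 that fell. Its level was 126, 132 and 128 CPM in the blank libraries, 141, 126 and 140.3 CPM in the vector libraries and 89.95, 91.6 and 86.8 CPM in the Firre libraries, a fall of 0.60 (SE 0.05, adjusted p 4.52e-11, edgeR). The 8 fibroblast markers summed to 7025 to 7142 CPM in the negative control and 3303 to 3651 CPM in the Firre group, with a median of -1.16 and none at 0, and their part in the fall of Zfp469 was not tested.

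Gm10076 (chr14:105681828-105682211), a pseudogene in RefSeq that is 99% identical to the ribosomal protein gene Rpl41, had the widest spread of the abundant members. Its values were 25, 20.2 and 22.9 CPM in the blank libraries, 21.3, 60.2 and 19.2 CPM in the vector libraries and 21.5, 16.1 and 90.2 CPM in the Firre libraries. A single library in each of the last groups, negative control replicate 2 and Firre replicate 3, stood far above the rest, and no difference passed (log2 difference 0.32, SE 0.77, adjusted p 0.759, edgeR). Without Firre replicate 3 the difference was -0.85. Rpl41 itself was called in neither direction (-0.09, adjusted p 0.525, edgeR).

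Position beside a coding gene was not used to choose the set. The nearest protein-coding gene lay on the same strand for 71 lincRNAs, pointed away from a start facing it (divergent) for 45, pointed towards it (convergent) for 28 and overlapped it for 25. That gene was expressed and tested for 137. In 44 pairs both passed the test against the negative control, of which 32 moved in the same direction, 21 up and 11 down, and 12 in opposite directions. Within 50 kilobases 36 pairs had both called, 26 of them (72.2%) in the same direction, and within 5 kilobases 19 pairs, 15 of them (78.9%) in the same direction. Beyond 50 kilobases 6 of 8 did (75%), so these counts show no order by distance. Over all 137 pairs, Pearson's r between the log2 differences was 0.29 and Spearman's rho 0.28. They were 0.58 and 0.62 over the 21 divergent pairs with starts within 1 kilobase, 0.57 and 0.31 over the 21 pairs beyond 50 kilobases, 0.21 and 0.28 over the 116 within 50 kilobases, 0.39 and 0.37 over the 73 within 5 kilobases and 0.10 and 0.23 over 15 overlapping pairs. The pairs share the same 6 libraries and are not independent replicates, and no test was made. Of all genes tested, 56.0% were called. No share was computed for other pairs of genes, so these counts do not show a link by position.

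Several pairs, chosen after their values were seen, show both patterns. Gm43050 (chr5:119828448-119831920) starts 748 bases from Tbx5, a core transcription factor of heart muscle, on the other strand. It stood at 3.38, 2.97 and 2.798 CPM in the blank libraries, 3.39, 2.26 and 3.11 CPM in the vector libraries and 5.61, 5.32 and 5.95 CPM in the Firre libraries, a rise of 0.95 (SE 0.18, adjusted p 3.74e-05, edgeR), while Tbx5 rose by 1.21, from 74.8 ± 1.34 to 173 ± 2.55 CPM. Gm17501 (chr3:145650312-145677580) starts 331 bases from Ccn1, a matrix protein and target of YAP, on the other strand. It fell by 0.77, from 23.9, 18.7 and 23.5 CPM in the vector libraries to 12.6, 10.96 and 15.4 CPM in the Firre libraries, and Ccn1 fell by 0.71. Gm14230 and Tgif2, a transcriptional repressor, start 115 bases apart and fell by 0.66 and 0.70. 9330158H04Rik, which overlaps the muscarinic receptor gene Chrm2 on the other strand, rose by 0.62, from 20.02 ± 1.47 to 30.8 ± 1.69 CPM, and Chrm2 rose by 0.38.

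Opposite pairs were fewer. Gm12295 (chr11:65277654-65365798), which lies 7665 bases from Myocd, the master coactivator of cardiac and smooth muscle genes, on the same strand, fell by 0.47, from 4.67, 3.24 and 4.54 CPM to 3.19, 2.75 and 3.03 CPM. Myocd rose by 0.98, from 77.8 ± 2.14 to 153 ± 3.21 CPM (adjusted p 2.05e-15, edgeR). B230312C02Rik, 35792 bases from Gata5, a regulator of endocardial and epicardial genes, stood at 0.928 ± 0.0795 and 1.49 ± 0.0280 CPM, a difference of 0.68 that did not pass (adjusted p 0.0655, edgeR), while Gata5 fell by 2.28. B230312C02Rik was under 1 CPM in both control groups and met the limit only through the Firre group.

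**Figure D4:**
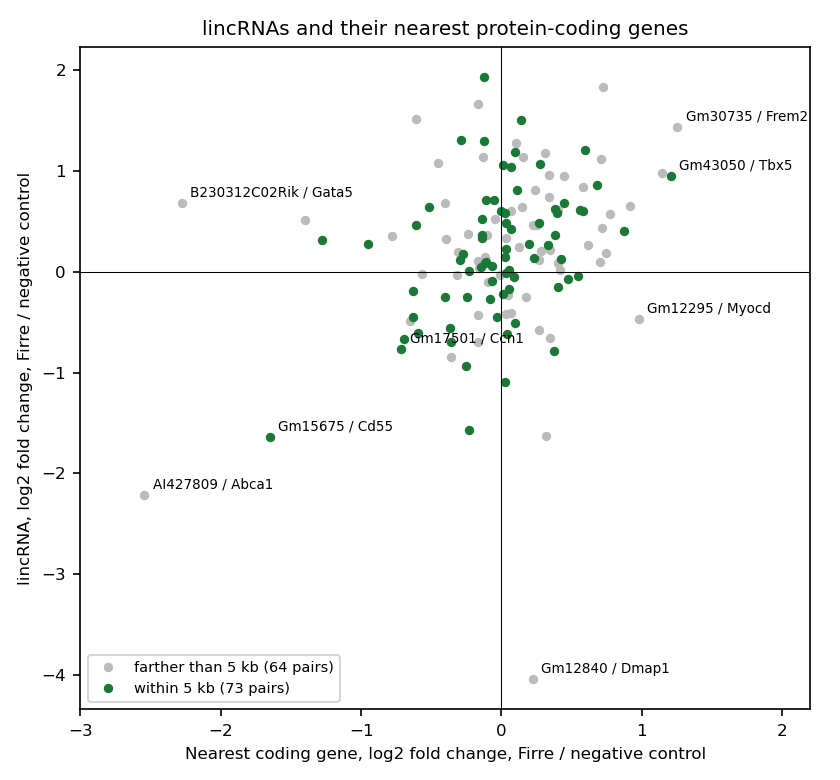
Each point is a lincRNA and its nearest protein-coding gene, with the log2 difference between Firre overexpression and negative control of the coding gene on the horizontal axis and of the lincRNA on the vertical axis; the 73 pairs within 5 kilobases are green and the 64 farther pairs grey. Most points lie within 1 unit of 0 on both axes, Gm43050 with Tbx5 lies at the upper right, AI427809 with Abca1 at the lower left, and Gm12840 is low with a neighbour near 0.

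Genes induced by interferon rose in the Firre group, and the share of lincRNA promoters with their motif was near that of all promoters. All 16 interferon-stimulated genes of a list rose against the negative control, with a median of 2.94, and Rsad2, an antiviral enzyme, went from 2.27 ± 0.706 to 100.2 ± 7.31 CPM (SD, n = 3 each), Oasl1 from 3.13 ± 0.110 to 73.5 ± 5.08 CPM and the transcription factor Irf7 from 121 ± 2.14 to 621 ± 17.1 CPM. The letters GAAA, any 2 bases and GAAA again, the core of the element through which interferon acts, were searched on both strands of the promoters and found in 3.44% of all 32851 and 2.75% of the 109 lincRNA promoters. The 3 lincRNAs were 9330158H04Rik and Gm26797, which rose by 0.62 and 0.71, and Gm5860, at 0.52 and not called. The part of interferon in these differences was not tested. In a list of immune lincRNAs annotated under any gene type, 3 of the 7 were tested, of which Gm14005 (Morrbid) fell, as given above, and Mirt1 and Mir155hg did not pass.

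Factors that degrade nuclear and aberrant RNA showed no common direction. Of 18 tested subunits and adaptors of the nuclear exosome, which clears unstable noncoding transcripts, 3 rose and 4 fell (median 0.03). Of all genes tested, 27.5% rose and 28.4% fell. Dis3, a catalytic subunit, fell from 51.1 ± 2.63 to 39.3 ± 1.11 CPM, Zfc3h1 rose from 62.2 ± 3.77 to 74.1 ± 1.65 CPM and Zc3h18 fell from 83.4 ± 1.56 to 71.5 ± 1.47 CPM (SD, n = 3 each). Of 15 factors of nonsense-mediated decay 3 rose and 2 fell (median 0.00), among them Upf3a at -0.44 and Smg5 at 0.16. In each list the share called was smaller than the 56.0% of all genes tested.

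Of the controls, only the negative control is labelled with the AAV9-VC vector, and the blank control is labelled no further than blank. Between them, the 6 lincRNAs with the smallest p were 6720427I07Rik, described above, 5033428I22Rik, Gm10010, Gm26532, AC132253.9 and Gm20186. Gm10010 (chr6:128187818-128200623) stood at 0.255, 0.438 and 0.514 CPM in the blank control and 0.770, 1.46 and 0.510 CPM in the negative control, with overlapping groups (log2 difference 1.16, SE 0.43, adjusted p 0.439, edgeR), and at 1.97, 1.76 and 2.14 CPM in the Firre group, where it rose by 1.08 against the negative control. Without negative control replicate 3 that rise was 0.79 and no longer passed (adjusted p 0.0601, edgeR). Gm10010 was under 1 CPM in both control groups and met the limit only through the Firre group, so the selection favoured its rise. Gm26532 stood at 4.42 ± 0.646 and 3.14 ± 0.288 CPM (difference -0.49, adjusted p 0.461) and AC132253.9 at 9.08 ± 0.500 and 10.97 ± 1.06 CPM (difference 0.27, adjusted p 0.513, edgeR, SD, n = 3 each). In the same comparison 5033428I22Rik stood at -0.24 and Gm20186 at 0.23, with adjusted p of 0.433 and 0.543 in edgeR.

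The summed share of the library held by these lincRNAs overlapped between the groups. Of gene counts, the 169 took 0.298%, 0.298% and 0.267% in the blank, 0.298%, 0.286% and 0.293% in the vector and 0.304%, 0.289% and 0.295% in the Firre libraries. The Firre and negative control groups overlapped (two-sided exact permutation test, p = 0.5, with 0.1 the smallest p that 3 against 3 allows). In each library Malat1 and Neat1 together held more than all the others together. Without them the other 167 took 0.128% ± 0.00272, 0.130% ± 0.00382 and 0.139% ± 0.00583 (SD, n = 3 each), with exact p of 0.2 against the negative control and 0.1 against the blank control. A list of 18 loci whose sequence resembles ribosomal or satellite repeats had 14 entries in the table, none of them in the set. Summed, these entries took at most 0.278% of the gene counts in any library.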

How the data were processed

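Total RNA of isolated cardiomyocytes was depleted of ribosomal RNA and sequenced as directional paired-end libraries, per the labels' protocols, although polyA RNA is named as the molecule, which leaves it unsettled whether RNA without a polyA tail was kept. As tools, per the submitters' processing notes, the authors used FastQC, Trimmomatic, STAR and featureCounts on mm10. The deposited table holds unnormalized counts by Ensembl gene. Rows for unassigned reads, named as HTSeq names them, held 16.3% to 17.4% of counts and stayed out. Of 55487 gene rows, 55227 matched GENCODE M21 (GRCm38), from which gene type, position and exon length were taken.

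All 9 libraries entered a single edgeR fit (4.0.16, R 4.3.3) with TMM scaling, filterByExpr (minimum count 10, minimum total 15), 6 residual degrees of freedom and 15633 genes tested, at an adjusted p of 0.05 over all of them (Benjamini-Hochberg). All 169 lincRNAs passed the filter. CPM in the text are scaled with TMM factors, except for the limit of 1 CPM, which used gene counts. The SE is the absolute log2 difference over the square root of F. The script was tested on simulated counts. Replicates are called biological, but neither animals nor cultures are named, so the p-values reflect the spread among these libraries, which may be only technical. No batch is named, and batch and group cannot be told apart.

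The members, gene lists and tests were chosen with earlier results of these data known. Named are Malat1 and Neat1, the 8 highest per exon length, the 10 largest rises and falls, every member of the role lists (matched by symbol or RefSeq synonym), the 6 with the smallest p between controls, the 3 on each side of the limit, coding neighbours of the largest changes and up to 3 genes from each protein list, of which some are not reported here. Near-identical copies were sought with BLAST 2.17.0 (at least 90% identity over 50% of the transcript) among GENCODE transcripts. Alternatives were other scalings, no filter, the replicate block, 2-group fits, DESeq2 (1.42.0) and leaving out each library.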

Additional observations from a re-analysis of the deposited data

How the results depend on the processing

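The count of lincRNAs called against the negative control was 88. It was 88 with RLE size factors, with the 2 groups alone and with library sizes free of repeat-like and mitochondrial genes, 85 with library totals alone, which moved the median of all genes by -0.055, 83 without the filter on low counts and 73 in DESeq2. Leaving out 1 library gave 75 to 81. Against the blank control the count was 85 and its alternatives gave 71 to 85. Between the controls it was 0, and 1 without the filter on low counts, the only alternative that called any. With the replicate block the counts were 86, 84 and 0. Same-numbered libraries did not deviate together (correlations of -0.07 to 0.06), so the numbers were not taken as pairs, and not every library correlated best with its own number. Of 35 named lincRNAs called against the negative control, 29 kept call and direction under all 13 alternatives, and over 598 recomputed values of 46 named lincRNAs, 567 stayed on their side of the threshold with the same direction. The differences that changed sign belonged to lincRNAs that were not called. Malat1 stood at -0.0208 with library totals, and at -0.0260 without negative control replicate 2 and -0.00897 without Firre replicate 1 (range with 1 library left out -0.0260 to 0.0700). Pvt1 stood at 0.0413, 0.0424 and 0.0230 without negative control replicate 1, Firre replicate 1 and Firre replicate 2 (range -0.171 to 0.0424). Gm43254 stood at 0.480, 0.0153 and 0.152 without negative control replicate 3, Firre replicate 1 and Firre replicate 2 (range -0.450 to 0.480), Gm26532 at -0.00705 without Firre replicate 2 (range -0.00705 to 0.251) and Gm10076 at -0.851 without Firre replicate 3 (range -0.851 to 1.06). The difference in summed share between Firre and negative control was 0.00362 percentage points and ran from -0.000454 (without Firre replicate 1) to 0.00719 with 1 library left out. The cause of these changes was not tested. Depth limits the lincRNAs below 2 CPM, whose median SE was 0.31.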
